A study of Mus musculus with 16 samples.

Results

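The 4 mature miRNAs described here are both arms of miR-9 (mmu-miR-9-5p and mmu-miR-9-3p) and both arms of miR-124 (mmu-miR-124-3p and mmu-miR-124-5p). They were taken by name from a table of 1978 named mouse miRNAs. The rule uses no measured value, but the set was proposed with earlier results of these data known. Small RNA was sequenced from primary forebrain neuronal cultures of perinatal mice, all transduced with a lentivirus. The 4 groups, of 4 libraries each, received a short hairpin RNA (shRNA), the same hairpin carrying 2 point mutations (shRNA_2bp), the same hairpin carrying 5 point mutations (shRNA_5bp), or a vector without a hairpin (Empty_Vector). No uninfected culture is part of these groups, so the viral vector is common to all of them. The labels give neither the hairpin's target nor its sequence, neither genotype nor strain, and no age beyond perinatal. Whether the 4 libraries of a group stem from different dishes or litters is not stated either, so p-values measure the spread between these libraries, which may be technical.

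MiR-9 and miR-124 are known as miRNAs of the neuronal lineage. MiR-9 is made in neural progenitors and in neurons, where it restrains progenitor proliferation through targets such as Nr2e1 and Hes1. Both of its arms are loaded and used: miR-9-5p targets the transcriptional repressor REST, which silences neuronal genes in other cells, and miR-9-3p targets the REST cofactor CoREST. MiR-124-3p is the guide arm of a miRNA highly enriched in neurons, and it represses Ptbp1, a splicing regulator of non-neuronal cells, and many transcripts of other tissues. MiR-124-5p is the opposite arm and is usually scarce. The miR-124 and miR-9 genes are themselves REST targets.

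The mature miR-9 sequences are shown because the seed decides which transcripts an arm can pair with, and the 2 arms of miR-9 differ in it. They are those of RefSeq for GRCm38.p6, 5′ to 3′, with the seed (bases 2 to 8) in capitals. Of the 4 members, 2 were found in that table.
mmu-miR-9-5p: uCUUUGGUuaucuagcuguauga
mmu-miR-9-3p: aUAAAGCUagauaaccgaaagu
The first has 23 bases and the second 22. Among 1679 mature mouse names searched in the table, 0 others carried the seed CUUUGGU and 0 others carried UAAAGCU.

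The same 2 mature sequences are cut from 3 hairpins at 3 loci. Here the mature arms are in capitals, 5p first.
Mir9-1: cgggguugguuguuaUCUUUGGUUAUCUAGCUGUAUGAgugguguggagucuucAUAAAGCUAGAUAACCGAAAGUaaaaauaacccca
Mir9-2: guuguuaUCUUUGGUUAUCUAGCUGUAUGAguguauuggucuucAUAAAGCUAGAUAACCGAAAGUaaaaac
Mir9-3: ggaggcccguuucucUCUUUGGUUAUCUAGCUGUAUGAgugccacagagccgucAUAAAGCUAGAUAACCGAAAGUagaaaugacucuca
The loop between the arms has 16 bases in Mir9-1, 14 in Mir9-2 and 16 in Mir9-3. A count of a mature arm therefore sums over the 3 loci, which cannot be told apart in these data.

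On GRCm38, with the GENCODE M21 annotation, all of these loci lie on the plus strand. Mir9-1 (chr3:88215598-88215686) lies in an intron of the long noncoding gene Gm3764, since none of its 5 spanning transcripts has an exon there. Mir9-2 (chr13:83738814-83738885) lies in an exon of 2 transcripts of the long noncoding gene C130071C03Rik. Mir9-3 (chr7:79505264-79505353) is intronic in all 4 spanning transcripts of its host gene Mir9-3hg. MiR-124 also has 3 loci. Mir124a-1 (chr14:64590657-64590741) overlaps exons of 2 transcripts of Mir124a-1hg. Mir124a-2 (chr3:17795662-17795770) is exonic in 1 of 5 spanning transcripts of Mir124-2hg. Mir124a-3 (chr2:180894040-180894107) lies within no other annotated gene.

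Names that could share reads with the members were scarce. MiR-9b comes from the opposite strand of miR-9 loci, and its mature sequences, shown to set beside those of miR-9, share at most 12 consecutive bases with miR-9-5p or miR-9-3p.
mmu-miR-9b-5p: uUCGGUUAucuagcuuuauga
mmu-miR-9b-3p: aUACAGCUagauaaccaaaga
MiR-9b-5p had 0 to 14 counts per library and summed to 0.00211% of the miR-9-5p counts. MiR-9b-3p had 3 to 22 counts and summed to 0.0427% of miR-9-3p. MiR-124b-3p had 1 to 68 counts, 0.27% of miR-124-3p, and had adjusted p of 0.238 to 0.802 in the 6 comparisons between groups (edgeR's quasi-likelihood test).

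Values are given as CPM, the count per 1 M counts of the library, after scaling by the trimmed mean of M values (TMM), with the standard deviation (SD) over 4 libraries. A miRNA is said to have risen or fallen when the adjusted p of edgeR's quasi-likelihood test, over the 483 miRNAs that passed the filter on low counts, was below 0.05. All 4 members passed that filter. Fold changes are on the log2 scale with their standard error (SE). Library totals were 6.3 ± 1.22 M counts with shRNA, 1.58 ± 0.393 M with shRNA_2bp, 1.43 ± 0.759 M with shRNA_5bp and 7.42 ± 4.24 M with Empty_Vector, so depth differed along with the group and its part in the results was not tested. In these bulk cultures a lower level through fewer cells of a type and through less RNA per cell cannot be told apart. The 3 hairpin groups were compared with the same 4 Empty_Vector libraries, so those 3 comparisons are not independent of each other. All 6 comparisons also come from 1 fit.

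With shRNA_2bp, both arms of miR-9 and miR-124-3p rose over Empty_Vector. With shRNA, miR-124-3p rose and neither miR-9 arm passed the test. With shRNA_5bp, miR-9-5p rose and the other 3 members did not pass. Between the mutated hairpins, all 4 members were lower with shRNA_5bp than with shRNA_2bp. The rise of miR-9-5p with shRNA_5bp depended on the scaling and on single libraries. So did the fall of miR-124-3p between the mutated hairpins, and that of miR-124-5p depended on single libraries.

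Read against the 483 tested miRNAs, 1 of 4 members passed and did not overlap with shRNA against Empty_Vector, when 34.8% of all passed, 19.7% rose and 32.9% did not overlap. With shRNA_2bp against Empty_Vector 3 of 4 members rose without overlap, when 65.6% of all passed, 33.3% rose and 59.2% did not overlap. For shRNA_5bp against Empty_Vector the count was 1 of 4, when 58.2% of all passed, 31.5% rose and 50.3% did not overlap. Against shRNA, 3 of 4 members rose without overlap with shRNA_2bp, when 64.6% of all passed, 31.1% rose and 58.4% did not overlap. With shRNA_5bp against shRNA 1 of 4 rose and 1 of 4 fell, both without overlap, when 53% of all passed, 28.4% rose, 24.6% fell and 48.7% did not overlap. With shRNA_5bp against shRNA_2bp 4 of 4 fell without overlap, when 59.6% of all passed, 22.8% fell and 53% did not overlap. Changes were thus common among all tested miRNAs, and the share of members that passed is set by 4 values.

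**Figure D1:**
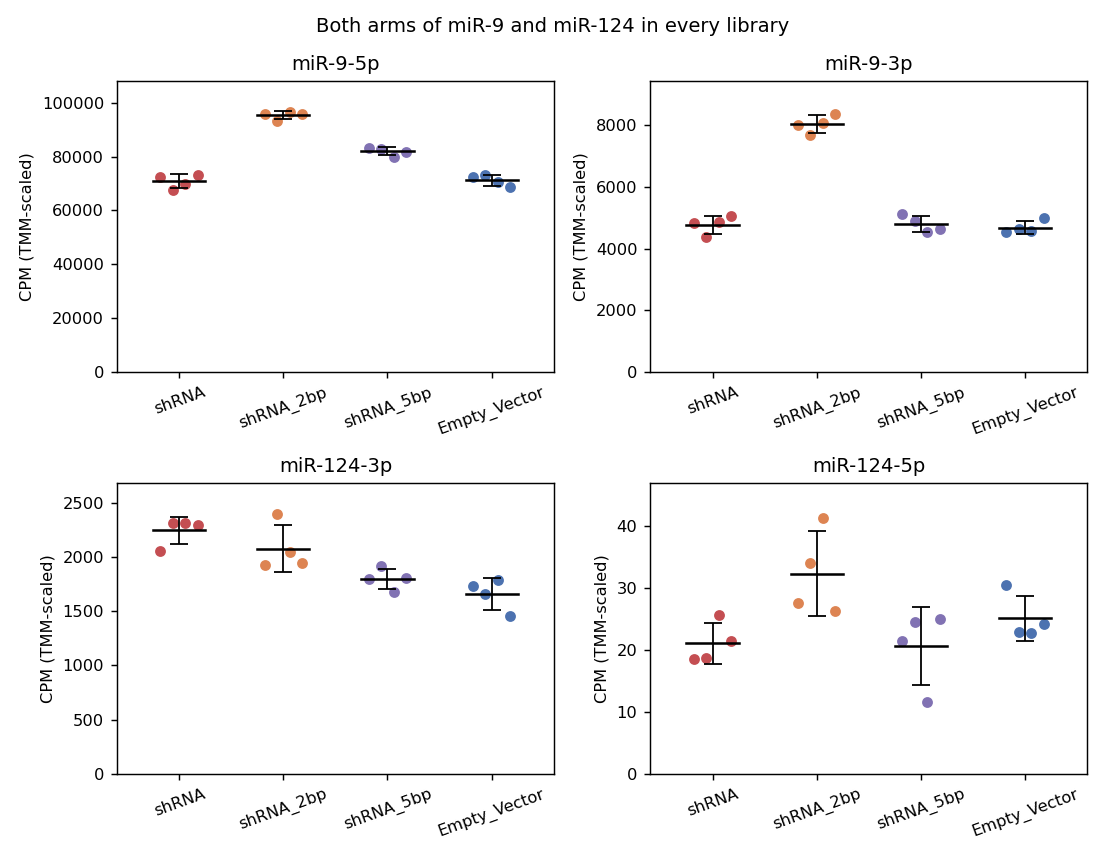
Level of each member (CPM, TMM-scaled, 1 panel per member with its own axis) in the 4 libraries of each group. Points are libraries and bars mark the mean ± SD. The shRNA_2bp libraries lie above all others for miR-9-5p and miR-9-3p, while the Empty_Vector libraries are lowest on average for miR-124-3p.

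MiR-9-5p was the third most abundant miRNA of every group. It stood at 72380, 67420, 69940 and 73170 CPM in the shRNA libraries. The shRNA_2bp libraries had 95740, 93230, 96550 and 95710 CPM, and the shRNA_5bp libraries 83290, 82910, 79850 and 81790 CPM. Empty_Vector libraries had 72410, 72980, 70350 and 68800 CPM. The shRNA_2bp libraries formed the highest group and shRNA_5bp the next, with no overlap between them or with the others, while shRNA and Empty_Vector overlapped. As a share of all counts before scaling, miR-9-5p made up 7.08 ± 0.438% with shRNA, 9.80 ± 0.113% with shRNA_2bp, 8.79 ± 0.369% with shRNA_5bp and 6.45 ± 0.0825% with Empty_Vector (SD, n = 4 each).

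With shRNA_2bp, miR-9-5p was 1.34-fold higher than with Empty_Vector (log2 0.42, SE 0.0468, edgeR adjusted p = 5.31e-09). It was also higher than with shRNA, by 0.43 on the log2 scale (SE 0.0468, edgeR adjusted p = 3.95e-09). Both rises kept their direction and passed the test under every scaling tried, with values of 0.42 to 0.60 over Empty_Vector and 0.43 to 0.54 over shRNA.

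The rise of miR-9-5p with shRNA_5bp was smaller, at 0.20 over Empty_Vector (SE 0.0467, edgeR adjusted p = 0.000427) and 0.21 over shRNA (SE 0.0467, edgeR adjusted p = 0.000327). It depended on the scaling. With upper-quartile scaling the difference from Empty_Vector was -0.03 (adjusted p = 0.78) and that from shRNA was 0.07 (adjusted p = 0.384), and without the filter on low counts they were -0.03 (adjusted p = 0.776) and 0.00 (adjusted p = 1). The median over all tested miRNAs of shRNA_5bp against Empty_Vector was 0.06 in the fit reported here, -0.17 with upper-quartile scaling and -0.28 without the filter. Leaving out Empty_Vector library 2 or 3, or shRNA_5bp library 4, gave 0.12, 0.12 and 0.11 over Empty_Vector with adjusted p of 0.0603, 0.0552 and 0.0578. Against shRNA, the values were 0.06, 0.06 and 0.06 without those libraries, and 0.07, 0.03 and 0.05 without shRNA library 1, 2 or 3, and none of these 6 passed. In the same 6 fits the median over all tested miRNAs of shRNA_5bp against shRNA was -0.16 to -0.15, when it was 0.00 with all 16 libraries, so the scaling of all miRNAs moved along with these values. Against shRNA_2bp, miR-9-5p fell by 0.22 with shRNA_5bp (SE 0.0468, edgeR adjusted p = 0.000227), a difference that passed under every scaling at values of -0.47 to -0.16.

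Between shRNA and Empty_Vector, miR-9-5p differed by -0.01 (SE 0.0467, 95% interval -0.10 to 0.09, edgeR adjusted p = 0.917). With library totals alone the difference was 0.14 and passed (adjusted p = 0.0191), when the median of all tested miRNAs was 0.18. In order of level, shRNA_2bp came first under every scaling. In the fit reported here shRNA_5bp came second and Empty_Vector and shRNA did not differ beyond their spread, but the place of shRNA_5bp above those 2 groups was lost with upper-quartile scaling, without the filter and without the single libraries named above.

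MiR-9-3p, the arm that targets CoREST, had 4841, 4365, 4845 and 5039 CPM with shRNA. With shRNA_2bp it had 7990, 7683, 8082 and 8374 CPM, and with shRNA_5bp 5110, 4877, 4545 and 4619 CPM. The Empty_Vector libraries had 4545, 4625, 4568 and 4989 CPM. Every shRNA_2bp library lay above all 12 others, and the other 3 groups overlapped. The arm ranked 19th by mean level with shRNA_2bp, 27th with shRNA, 26th with shRNA_5bp and 28th with Empty_Vector.

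MiR-9-3p rose 1.72-fold with shRNA_2bp over Empty_Vector (log2 0.78, SE 0.0554, edgeR adjusted p = 5.39e-13). Over shRNA the rise was 0.75 (SE 0.0554, edgeR adjusted p = 1e-12). With shRNA_5bp it was lower than with shRNA_2bp, by -0.75 on the log2 scale (SE 0.0557, edgeR adjusted p = 1.98e-12). These 3 calls held under every scaling and without any 1 of the 16 libraries. In the fits that left out 1 library the values were 0.69 to 0.82, 0.68 to 0.78 and -0.87 to -0.71.

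The remaining differences of miR-9-3p were near 0 in the fit reported here and depended on the scaling and the filter. It differed by 0.03 with shRNA from Empty_Vector (95% interval -0.09 to 0.14, edgeR adjusted p = 0.745) and by 0.03 with shRNA_5bp (interval -0.08 to 0.15, adjusted p = 0.634). Between shRNA_5bp and shRNA it differed by 0.00 (interval -0.11 to 0.12, adjusted p = 0.957). The sign of these 3 values changed with the scaling. Over Empty_Vector, shRNA_5bp gave 0.27 with library totals alone (adjusted p = 0.000269) and -0.20 with upper-quartile scaling (adjusted p = 0.0218), and shRNA gave 0.17 with library totals alone (adjusted p = 0.022). Without the filter on low counts, shRNA_5bp gave -0.20 over Empty_Vector (adjusted p = 0.00735) and -0.20 over shRNA (adjusted p = 0.0071), and both passed. The medians over all tested miRNAs without the filter were -0.28 and -0.28, so relative to them miR-9-3p was not lower. With library totals alone the median over Empty_Vector was 0.30 with shRNA_5bp and 0.18 with shRNA. With upper-quartile scaling it was -0.17 with shRNA_5bp. These values of miR-9-3p thus moved along with all miRNAs. Against shRNA, shRNA_5bp gave -0.15 without Empty_Vector library 2 (adjusted p = 0.0384), -0.15 without Empty_Vector library 3 (0.039) and -0.19 without shRNA library 2 (0.00752). The median over all tested miRNAs in those 3 fits was -0.15, -0.15 and -0.16, so relative to it miR-9-3p was near 0 in the first 2.

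The ratio of the 2 arms within a library does not depend on scaling. MiR-9-5p outnumbered miR-9-3p by 14.95, 15.44, 14.44 and 14.52 to 1 in the shRNA libraries. The ratio was 11.98, 12.13, 11.95 and 11.43 in the shRNA_2bp libraries and 16.3, 17, 17.57 and 17.7 in the shRNA_5bp libraries. In the Empty_Vector libraries it was 15.93, 15.78, 15.4 and 13.79. The shRNA_2bp libraries held the lowest ratios and the shRNA_5bp libraries the highest, with no overlap between either group and any other, while shRNA and Empty_Vector overlapped.

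In log2 terms the miR-9 ratio differed from Empty_Vector by -0.04 with shRNA (exact p = 0.514), by -0.36 with shRNA_2bp and by 0.17 with shRNA_5bp. From shRNA it differed by -0.32 with shRNA_2bp and by 0.21 with shRNA_5bp, and shRNA_5bp differed from shRNA_2bp by 0.53. Apart from shRNA against Empty_Vector, these differences had a two-sided exact permutation p of 0.0286, the smallest that 4 against 4 libraries allow. Adjusted over the 18 ratio tests of 3 ratios in 6 comparisons this became 0.0514, so none passed.

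A count model over the 119 hairpins with both arms tested, added after those exact tests were seen, compared the 5p to 3p ratio between groups with the library as a block (edgeR, adjusted over the 119). In it the miR-9 ratio fell with shRNA_2bp against Empty_Vector by 0.36 (SE 0.0607, adjusted p = 1.74e-05), when 41.2% of the 119 hairpins passed. It rose by 0.17 with shRNA_5bp (SE 0.0608, adjusted p = 0.0233), when 40.3% passed. The last call was lost without Empty_Vector library 4 (0.13, adjusted p = 0.0899) or shRNA_5bp library 3 (0.16, adjusted p = 0.0629). Against shRNA, the ratio fell by 0.32 with shRNA_2bp (adjusted p = 8.62e-05, 35.3% of hairpins passing) and rose by 0.21 with shRNA_5bp (adjusted p = 0.0128, 29.4% passing). With shRNA_5bp against shRNA_2bp it rose by 0.53 (SE 0.0609, adjusted p = 4.42e-08), when 37.8% passed.

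**Figure D2:**
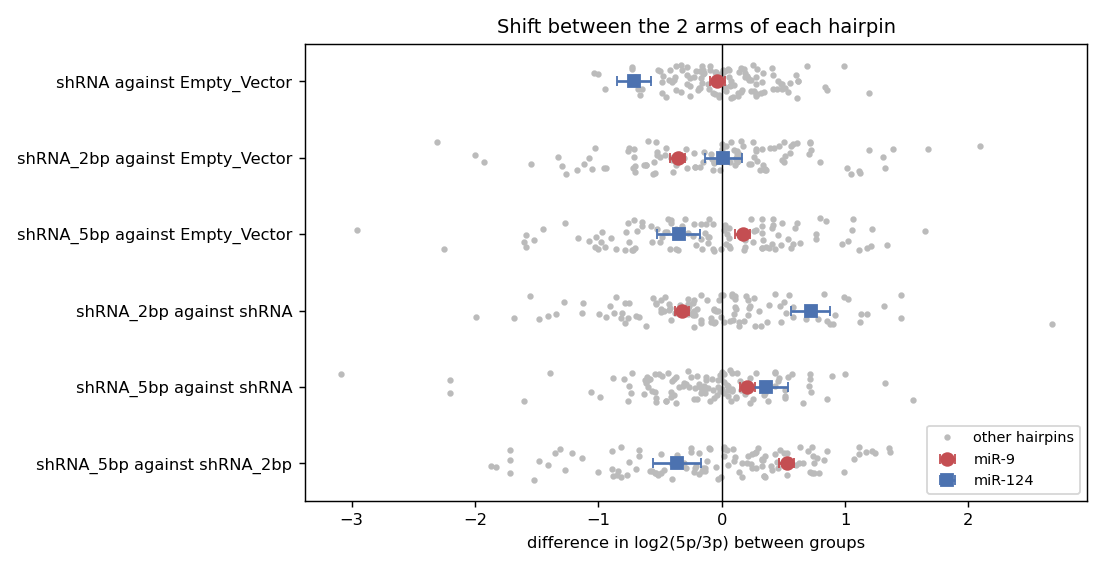
Difference between groups in log2(5p/3p) for each of the 119 hairpins in the 6 comparisons, from the count model, with negative values toward the 3p arm. Coloured points are miR-9 and miR-124 with their SE, and grey points are the other hairpins. MiR-9 lies at -0.36 with shRNA_2bp and at 0.17 with shRNA_5bp over Empty_Vector, within the range of the other hairpins.

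MiR-124-3p, the guide arm, had 2061, 2317, 2318 and 2301 CPM with shRNA. It had 1928, 2399, 2049 and 1945 CPM with shRNA_2bp, and 1796, 1918, 1681 and 1806 CPM with shRNA_5bp. Empty_Vector libraries had 1738, 1660, 1791 and 1456 CPM. All shRNA and shRNA_2bp libraries lay above all shRNA_5bp and Empty_Vector libraries, while shRNA_5bp overlapped Empty_Vector and shRNA overlapped shRNA_2bp. The arm took 0.225 ± 0.0182% of all counts with shRNA, 0.214 ± 0.026% with shRNA_2bp, 0.193 ± 0.0146% with shRNA_5bp and 0.151 ± 0.0121% with Empty_Vector. Its share of the counts was thus far below that of miR-9-5p. Ligation and amplification can differ between miRNAs, so these shares do not compare molecules.

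MiR-124-3p rose 1.35-fold with shRNA over Empty_Vector (log2 0.44, SE 0.0699, edgeR adjusted p = 1.19e-05). It rose 1.25-fold with shRNA_2bp (log2 0.33, SE 0.0705, edgeR adjusted p = 0.00021). Both rises passed under every scaling and without any 1 of the 16 libraries (0.34 to 0.55 and 0.21 to 0.41). With shRNA_5bp the difference was 0.12 (95% interval -0.03 to 0.26, edgeR adjusted p = 0.152). That value was 0.36 and passed with library totals alone (adjusted p = 0.000309), and was -0.11 with upper-quartile scaling.

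Among the hairpins, miR-124-3p fell by 0.32 with shRNA_5bp against shRNA (SE 0.0706, edgeR adjusted p = 0.000346), under every scaling and without any 1 library. With shRNA_2bp it differed from shRNA by -0.11 (95% interval -0.26 to 0.03, edgeR adjusted p = 0.17), and passed without shRNA library 1 (-0.17, adjusted p = 0.0453) or shRNA_2bp library 2 (-0.18, adjusted p = 0.0229), and without the filter on low counts (-0.19, adjusted p = 0.025). The median over all tested miRNAs was -0.18 without the filter, so that value moved along with all miRNAs. In the fits without those libraries the median was -0.03 and 0.02. MiR-124-3p fell by 0.21 with shRNA_5bp against shRNA_2bp (SE 0.0712, edgeR adjusted p = 0.0136), but was -0.14 without shRNA_2bp library 2 (adjusted p = 0.0904) and -0.15 with library totals alone (adjusted p = 0.113). In order of level, and in the fit of all libraries, shRNA and shRNA_2bp did not differ beyond their spread, nor did shRNA_5bp and Empty_Vector at the lower end.

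MiR-124-5p was measured at low depth, with 10 to 249 counts per library. Its levels were 18.45, 18.67, 25.58 and 21.37 CPM with shRNA. They were 27.54, 33.92, 41.16 and 26.18 CPM with shRNA_2bp, and 21.33, 24.5, 11.51 and 24.93 CPM with shRNA_5bp, where the lowest value rests on 10 counts. The Empty_Vector libraries had 30.42, 22.88, 22.73 and 24.06 CPM. The shRNA_2bp libraries lay above all shRNA and shRNA_5bp libraries and overlapped Empty_Vector.

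The opposite arm rose with shRNA_2bp against shRNA, by 0.62 (SE 0.184, edgeR adjusted p = 0.00438), and without any 1 library the value was 0.47 to 0.70. With shRNA_5bp it fell by 0.58 against shRNA_2bp (SE 0.211, edgeR adjusted p = 0.0202), a call lost without shRNA_2bp library 3 (-0.43, adjusted p = 0.0986) or shRNA_5bp library 3 (-0.44, adjusted p = 0.0659). Over Empty_Vector it differed by -0.25 with shRNA (95% interval -0.59 to 0.09, adjusted p = 0.264), by 0.37 with shRNA_2bp (interval -0.01 to 0.75, adjusted p = 0.077) and by -0.21 with shRNA_5bp (interval -0.61 to 0.20, adjusted p = 0.374). The shRNA_2bp value passed with library totals alone (0.55, adjusted p = 0.0119), in a fit of those 2 groups only (0.38, adjusted p = 0.043), without Empty_Vector library 1 (0.48, adjusted p = 0.0329) and without shRNA_5bp library 3 (0.38, adjusted p = 0.0476). Between shRNA_5bp and shRNA the difference was 0.04 (interval -0.36 to 0.45, adjusted p = 0.893).

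**Figure D3:**
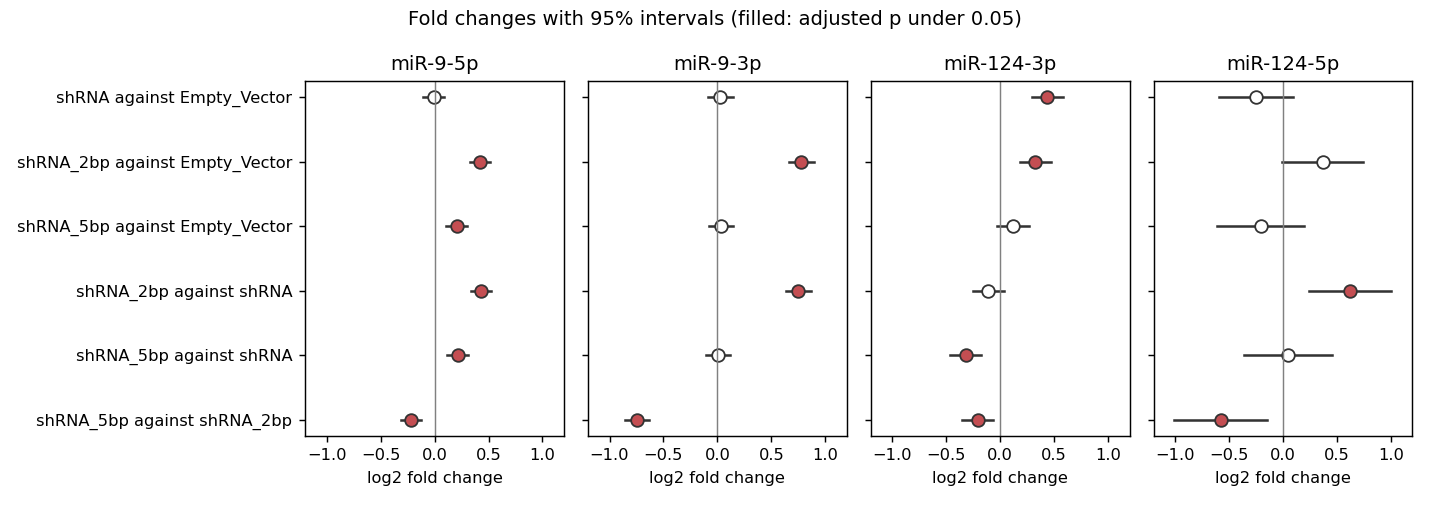
Log2 fold change of the 4 members in the 6 comparisons, with 95% intervals from the edgeR fit. Filled points have an adjusted p below 0.05. MiR-9-3p stands near 0.75 wherever shRNA_2bp is set over shRNA or Empty_Vector and near -0.75 where shRNA_5bp is set over shRNA_2bp, and the intervals of miR-124-5p are the widest.

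**Figure D4:**
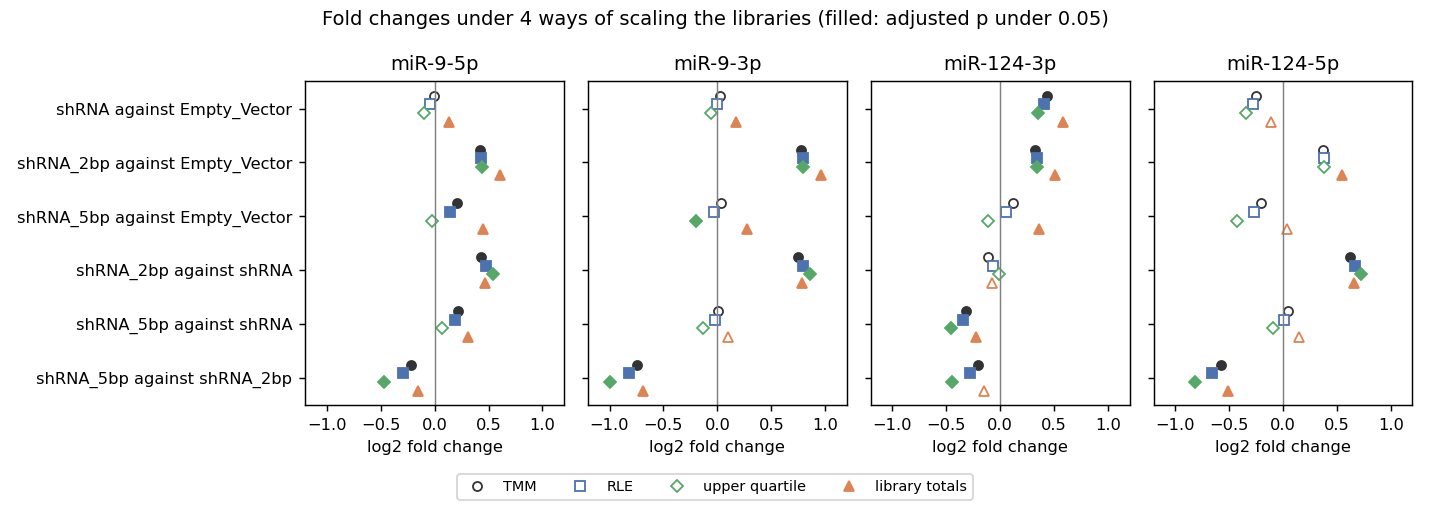
Log2 fold change of each member in the 6 comparisons under 4 ways of scaling the libraries (TMM, relative log expression, library totals alone and upper quartile). Filled points have an adjusted p below 0.05. The values that involve shRNA_5bp spread most, while those of shRNA_2bp against Empty_Vector and against shRNA stay on 1 side of 0 for both miR-9 arms.

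The ratio of miR-124-3p to miR-124-5p was 111.3, 123.5, 90.3 and 107.3 in the shRNA libraries. It was 69.28, 70.25, 49.38 and 73.15 with shRNA_2bp, and 82.26, 77.69, 139.2 and 71.6 with shRNA_5bp. The Empty_Vector libraries had 56.91, 72.4, 78.11 and 60.41. All shRNA libraries lay above all shRNA_2bp and all Empty_Vector libraries, and the widest group was shRNA_5bp, whose library 3 rests on 10 counts of the opposite arm.

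The log2 ratio of miR-124 differed from Empty_Vector by 0.69 with shRNA (exact p = 0.0286, adjusted p = 0.0514), by -0.04 with shRNA_2bp (exact p = 0.886) and by 0.43 with shRNA_5bp (exact p = 0.143). From shRNA it differed by -0.73 with shRNA_2bp (exact p = 0.0286, adjusted p = 0.0514) and by -0.27 with shRNA_5bp (exact p = 0.314). With shRNA_5bp it differed from shRNA_2bp by 0.46 (exact p = 0.0571). In the count model added afterwards, the 3p to 5p ratio of miR-124 rose by 0.71 with shRNA over Empty_Vector (SE 0.138, adjusted p = 0.00028), when 26.9% of the 119 hairpins passed. It fell by 0.72 with shRNA_2bp against shRNA (SE 0.161, adjusted p = 0.000568). Both calls held without any 1 of the 16 libraries, and the other 4 comparisons of miR-124 did not pass.

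For every read of miR-9-5p, the libraries counted 0.0285, 0.0344, 0.0331 and 0.0315 reads of miR-124-3p with shRNA. With shRNA_2bp the ratio was 0.0201, 0.0257, 0.0212 and 0.0203, and with shRNA_5bp 0.0216, 0.0231, 0.0211 and 0.0221. The Empty_Vector libraries had 0.0240, 0.0228, 0.0255 and 0.0212. The shRNA libraries lay above all 12 others, and the other 3 groups overlapped. The log2 difference was 0.45 for shRNA against Empty_Vector, -0.55 for shRNA_2bp against shRNA and -0.53 for shRNA_5bp against shRNA, each with exact p = 0.0286 and adjusted p = 0.0514. It was -0.10 for shRNA_2bp against Empty_Vector (exact p = 0.4), -0.09 for shRNA_5bp against Empty_Vector (exact p = 0.257) and 0.01 for shRNA_5bp against shRNA_2bp (exact p = 0.943). Ligation and amplification can differ between 2 miRNAs, so this ratio compares libraries and is not a ratio of molecules.

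**Figure D5:**
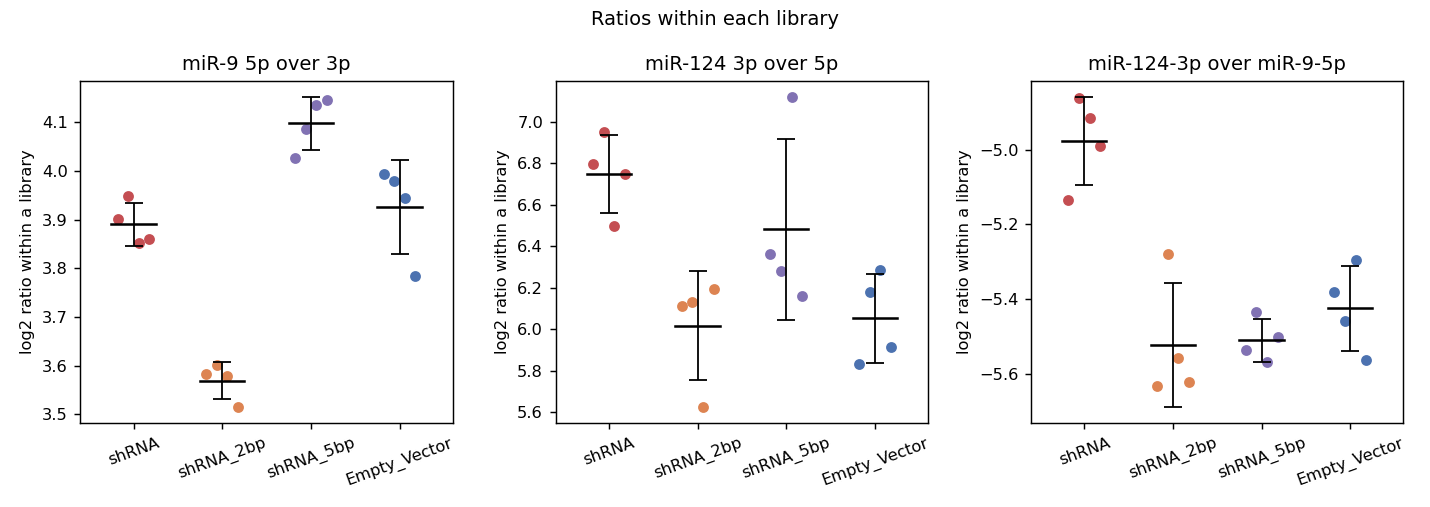
Ratios within each library on a log2 axis: miR-9-5p over miR-9-3p, miR-124-3p over miR-124-5p, and miR-124-3p over miR-9-5p. Points are libraries and bars mark the mean ± SD. The shRNA_2bp libraries are lowest and the shRNA_5bp libraries highest in the first panel, and the shRNA libraries are highest in the third.

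The miRNAs whose pattern was most like each member were ranked by Pearson's r over the log2 CPM of the 16 libraries, among 359 other miRNAs of at least 10 CPM. These values describe libraries that fall into 4 groups and share 1 scaling, and have no test. MiR-9-5p was closest to miR-22-5p, miR-381-3p and miR-376b-3p (r = 0.967 each), then miR-25-3p (0.953) and miR-872-5p (0.95). MiR-9-3p was closest to miR-21a-5p (0.956), miR-378c (0.954), miR-378a-3p (0.948), miR-22-3p (0.946) and miR-22-5p (0.937). MiR-124-3p had looser neighbours, led by miR-16-5p (0.792), miR-26b-5p (0.711), miR-191-5p (0.705), miR-344c-3p (0.699) and miR-31-5p (0.682). MiR-124-5p was closest to miR-299a-3p and miR-299b-3p (0.75 each, the same counts under both names), miR-130b-5p (0.729), miR-30b-3p (0.728) and let-7a-1-3p (0.709). Among the members themselves, r was 0.872 between the miR-9 arms, 0.215 between the miR-124 arms, and 0.145 between miR-9-5p and miR-124-3p.

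Other neuron-enriched miRNAs did not share 1 direction. Of 29 tested, 11 rose and 9 fell with shRNA over Empty_Vector (median 0.02, against 0.04 for all tested miRNAs). With shRNA_2bp 5 rose and 17 fell (median -0.46, against 0.01), and with shRNA_5bp 12 rose and 6 fell (median 0.13, against 0.06). With shRNA_5bp the falls numbered 12 with upper-quartile scaling and 3 with library totals alone. Among all tested miRNAs 34.8% passed and 19.7% rose with shRNA, 65.6% and 33.3% with shRNA_2bp, and 58.2% and 31.5% with shRNA_5bp. MiR-128-3p, a neuronal miRNA that restrains excitability, fell by 0.37 with shRNA, by 0.83 with shRNA_2bp and by 0.81 with shRNA_5bp (edgeR adjusted p = 4.84e-05, 4.83e-12 and 1.42e-11). MiR-129-5p rose by 0.63 with shRNA and by 0.57 with shRNA_5bp (edgeR adjusted p = 1.39e-08 and 1.92e-08). Its mean level with shRNA_2bp was lower, at 8178 CPM against 10640 CPM with Empty_Vector. MiR-125b-5p, expressed in neurons and glia, rose with shRNA_2bp by 0.39 (SE 0.0663, edgeR adjusted p = 8.9e-06). MiR-127-3p of the Dlk1-Dio3 region fell by 0.81 with shRNA_2bp (SE 0.0623, edgeR adjusted p = 2.99e-12). It also fell with shRNA (-0.50, edgeR adjusted p = 2.02e-07) and with shRNA_5bp (-0.24, edgeR adjusted p = 0.00147).

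A list of 11 other miRNAs linked to REST in earlier work was tested whole, of which 7 also stand in the neuron-enriched list, so the 2 lists' counts are not separate. The 7 are miR-132-3p, miR-132-5p, miR-212-3p, miR-212-5p, miR-153-3p, miR-218-5p and miR-7a-5p. Over Empty_Vector, 8 rose and 1 fell with shRNA (median 0.59), 3 rose and 7 fell with shRNA_2bp (median -0.41), and 6 rose and 3 fell with shRNA_5bp (median 0.58). With library totals alone the falls numbered 0, 4 and 1. The 1 fall with shRNA also became 0 in several fits that left out 1 library, and 2 with upper-quartile scaling. Among all tested miRNAs 34.8%, 65.6% and 58.2% passed in these comparisons and 19.7%, 33.3% and 31.5% rose, at medians of 0.04, 0.01 and 0.06. MiR-132-3p, induced by neuronal activity, rose by 0.95, 0.45 and 1.07 with shRNA, shRNA_2bp and shRNA_5bp. MiR-7a-5p rose by 1.54 with shRNA and by 1.94 with shRNA_5bp and fell by 0.46 with shRNA_2bp. MiR-139-5p fell by 0.78 with shRNA_2bp (edgeR adjusted p = 4.05e-12) and by 0.26 with shRNA_5bp (adjusted p = 0.000557). MiR-218-5p fell by 0.50 with shRNA_5bp (adjusted p = 1.57e-05) and also fell with shRNA_2bp (-0.20, adjusted p = 0.0335). It was the 1 counted as falling with shRNA, at the edge of the threshold (-0.21, edgeR adjusted p = 0.05 when rounded).

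Of 7 tested miRNAs of neural progenitors and proliferation, out of 17 listed, 1 rose with shRNA, 4 with shRNA_2bp and 3 with shRNA_5bp, and 0 fell. Their summed level before TMM scaling was 738 to 829 CPM with shRNA, 1150 to 1400 CPM with shRNA_2bp, 959 to 1110 CPM with shRNA_5bp and 613 to 767 CPM with Empty_Vector. The 3 rises with shRNA_5bp became 1 without Empty_Vector library 2 and with upper-quartile scaling, and 6 with library totals alone. Of all tested miRNAs 19.7%, 33.3% and 31.5% rose with shRNA, shRNA_2bp and shRNA_5bp. With library totals alone the median of all tested miRNAs over Empty_Vector was 0.18, 0.19 and 0.30 in that order. The sums are not corrected for that shift. MiR-25-3p of the miR-106b-25 cluster rose by 1.09 with shRNA_2bp (edgeR adjusted p = 8.23e-13) and by 0.51 with shRNA_5bp (adjusted p = 2.87e-06), while miR-367-3p, miR-290a-3p, miR-291a-3p and miR-295-3p of pluripotent cells had 0 counts in all 16 libraries, which allows up to 3.61 CPM in the shallowest one (3 counts, counting error only).

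Of 8 tested astroglia-leaning miRNAs, out of 9 listed, 3 rose and 0 fell with shRNA, 5 rose and 1 fell with shRNA_2bp, and 4 rose and 0 fell with shRNA_5bp. Their summed level before TMM scaling was 3980 to 4720 CPM with shRNA, 5230 to 5680 CPM with shRNA_2bp, 4690 to 5090 CPM with shRNA_5bp and 3480 to 3740 CPM with Empty_Vector. The 4 rises with shRNA_5bp became 2 without Empty_Vector library 3, 1 with upper-quartile scaling and 8 with library totals alone. The 3 with shRNA became 5 with library totals alone. Rises made up 19.7%, 33.3% and 31.5% of all tested miRNAs with shRNA, shRNA_2bp and shRNA_5bp. MiR-21a-5p rose by 1.28 with shRNA_2bp (SE 0.07, edgeR adjusted p = 1.5e-15), by 0.30 with shRNA and by 0.29 with shRNA_5bp. The 1 that fell with shRNA_2bp was miR-24-3p, by 0.70 (SE 0.0555, edgeR adjusted p = 6.33e-12). The sums of this list and of the progenitor list were highest in the shRNA_2bp libraries, as were miR-9-5p and miR-9-3p, and their part in those results was not tested. The sums include the shift of all tested miRNAs without TMM scaling, a median of 0.19 with shRNA_2bp over Empty_Vector.

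Of 7 tested vessel and fibroblast miRNAs, out of 10 listed, of which miR-143-3p is also in the astroglia list, 0 changed with shRNA and 5 rose with each mutated hairpin. Their sum before TMM scaling was 665 to 808 CPM with shRNA and 1240 to 1460 CPM with shRNA_2bp. It was 1280 to 1430 CPM with shRNA_5bp and 658 to 761 CPM with Empty_Vector. MiR-126a-3p alone made up most of each sum. Its mean levels after TMM scaling were 675, 1134, 1099 and 735 CPM with shRNA, shRNA_2bp, shRNA_5bp and Empty_Vector. Of all tested miRNAs 34.8% passed with shRNA over Empty_Vector, and 33.3% and 31.5% rose with shRNA_2bp and shRNA_5bp. MiR-126a-3p, made in endothelial cells, rose by 0.63 with shRNA_2bp and by 0.58 with shRNA_5bp (edgeR adjusted p = 7.92e-10 and 5.72e-09), while miR-145a-5p of smooth muscle had at most 2 counts in any library. Their part in the members' differences was not tested either.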

How the data were processed

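Small RNA libraries were made from 100 ng of total RNA with a ligation kit and 15 PCR cycles, per the labels' protocols. The deposited table holds raw read counts per mature miRNA for 16 libraries. Per the submitters' processing notes, bcl2fastq 2.20.0.422, Trim Galore 0.6.0, cutadapt 1.15, Bowtie 1.1.1, edgeR and the build GRCm38.p6 were used, without a stated role for each. Reads carry no molecular identifiers, so limits drawn from a count of 0 cover counting error only, and differences in ligation between miRNAs stay in the values.

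From these counts all 16 libraries were fitted together in edgeR 4.0.16 (limma 3.58.1, R 4.3.3), with 1 coefficient per group, TMM scaling and the filter filterByExpr. It kept 483 of 1978 miRNAs and left out 1495, of which 611 had no count. The robust quasi-likelihood test was adjusted by Benjamini and Hochberg over the 483. Ratios within libraries were compared by two-sided exact permutation, adjusted over 18 tests. DESeq2 1.42.0, other scalings, no filter, pairwise fits, the replicate block and leaving out each library were alternatives. The scripts were tested on simulated data.

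The members and lists were chosen with earlier results of these data known. Named miRNAs are the members, near-identical names, the 5 closest patterns per member, and up to 4 changed members of a list by mean level. List members named at 0 or few counts, such as miR-367-3p, fall outside that rule and were chosen after their values were seen. Lists were neuron-enriched, REST-linked, progenitor, astroglia, oligodendrocyte, microglia and leukocyte, vessel, and erythroid miRNAs.

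Groups share replicate numbers 1 to 4, with no stated meaning. Over 360 miRNAs, deviations of same-numbered libraries correlated at 0.111 to 0.282 between shRNA and Empty_Vector and at 0.166 to 0.198 between shRNA_2bp and shRNA. The numbers may thus mark pairs there, but the tests reported here treated the libraries as unpaired. The replicate block entered as an alternative only. In the other 4 comparisons at least 1 pair was below 0.1. Raw reads were not used here.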

Additional observations from a re-analysis of the deposited data

Results flagged for a closer look

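Among 28 groups of 4 values examined (levels of the members and ratios within libraries), 2 held a library far from the other 3, where chance gives about 1 in 20. The miR-124-3p level of shRNA library 1 was 2061 CPM, below the other 3 shRNA libraries, and its gap to the nearest took up 0.934 of the group's range. It still lay above every Empty_Vector library. The log2 ratio of miR-124-3p to miR-124-5p in shRNA_2bp library 3 was 5.63, below the other 3 shRNA_2bp libraries, with a gap of 0.861 of the range.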

How the results depend on the processing

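Both rises of each miR-9 arm with shRNA_2bp, the rises of miR-124-3p with shRNA and shRNA_2bp over Empty_Vector, the fall of miR-124-3p with shRNA_5bp against shRNA and the fall of miR-9-3p with shRNA_5bp against shRNA_2bp kept direction and call under every alternative run. The counts of tested miRNAs that passed stayed within 1.5 times everywhere. Scaling and the filter on low counts moved all miRNAs together: the median over all tested miRNAs for shRNA, shRNA_2bp and shRNA_5bp over Empty_Vector was 0.04, 0.01 and 0.06 with TMM, but 0.18, 0.19 and 0.30 with library totals alone, and the rises among calls were 56.5%, 50.8% and 54.1% with TMM, but 77.2%, 61.9% and 72.7%. With upper-quartile scaling those medians were -0.05, 0.03 and -0.17 and the rises 41.2%, 51.8% and 37.2%, and without the filter they were 0.01, -0.18 and -0.28 and 49%, 38.2% and 38.2%. For shRNA_5bp over shRNA the rises were 53.5% with TMM, 37.4% with upper-quartile scaling and 33.7% without the filter. The cause of the changes below was not tested. Depth limits miR-124-5p most, and the smallest exact p of the ratio tests, 0.0286, became 0.0514 on adjustment.

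With library totals alone, miR-9-5p with shRNA over Empty_Vector was 0.14, miR-9-3p 0.17 with shRNA and 0.27 with shRNA_5bp, miR-124-3p 0.36 with shRNA_5bp, and miR-124-5p 0.55 with shRNA_2bp and 0.041 with shRNA_5bp, and miR-124-3p with shRNA_5bp against shRNA_2bp was -0.15. Relative log expression (RLE) scaling gave miR-9-3p -0.0059 with shRNA over Empty_Vector, -0.027 with shRNA_5bp over Empty_Vector and -0.022 with shRNA_5bp over shRNA, and DESeq2 gave -0.0059, -0.028 and -0.022. Upper-quartile scaling gave miR-9-3p -0.061, -0.20 and -0.13 in those 3 comparisons, miR-9-5p -0.025 and miR-124-3p -0.11 with shRNA_5bp over Empty_Vector, and miR-9-5p 0.072 and miR-124-5p -0.090 with shRNA_5bp over shRNA. Without the filter, with shRNA_5bp over Empty_Vector, miR-9-5p was -0.028, miR-9-3p -0.20 and miR-124-3p -0.11. With shRNA_5bp over shRNA they were 0.0036 for miR-9-5p, -0.20 for miR-9-3p and -0.17 for miR-124-5p (both miR-9-3p values passed), and miR-124-3p with shRNA_2bp over shRNA was -0.19. The medians of all tested miRNAs over shRNA in that fit were -0.28 with shRNA_5bp and -0.18 with shRNA_2bp. In fits of the 2 groups alone, miR-124-5p was 0.38 with shRNA_2bp, miR-9-5p 0.12 and miR-9-3p -0.053 with shRNA_5bp, all over Empty_Vector.

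The count model of arm ratios, chosen after seeing the data, passed where the exact tests did not: for miR-9 -0.36 and 0.17 with shRNA_2bp and shRNA_5bp over Empty_Vector, -0.32 and 0.21 over shRNA and 0.53 with shRNA_5bp over shRNA_2bp, and for miR-124 0.71 with shRNA over Empty_Vector and -0.72 with shRNA_2bp over shRNA.

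Leaving out 1 library at a time, over Empty_Vector miR-9-5p was -0.061 to 0.088 with shRNA and 0.11 to 0.22 with shRNA_5bp, miR-9-3p -0.018 to 0.14 with shRNA and -0.072 to 0.063 with shRNA_5bp, and miR-124-5p 0.18 to 0.48 with shRNA_2bp. Over shRNA, miR-124-3p was -0.18 to -0.073 with shRNA_2bp, and with shRNA_5bp miR-9-5p was 0.032 to 0.23, miR-9-3p -0.19 to 0.030 and miR-124-5p -0.18 to 0.19. With shRNA_5bp over shRNA_2bp, miR-124-3p was -0.34 to -0.14 and miR-124-5p -0.78 to -0.43. The log2 ratio of miR-124-3p to miR-124-5p with shRNA_2bp over Empty_Vector was -0.11 to 0.094, and that of miR-124-3p to miR-9-5p with shRNA_5bp over shRNA_2bp was -0.024 to 0.094. Counts of 2 or fewer in the lists moved by at most 1 when single libraries were left out.

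With the replicate block, no member changed its call, and 185, 324 and 294 miRNAs passed with shRNA, shRNA_2bp and shRNA_5bp over Empty_Vector. Between the hairpins 319 (shRNA_2bp over shRNA), 266 (shRNA_5bp over shRNA) and 298 passed with the block. Every library correlated best with its own number in shRNA against Empty_Vector and in shRNA_2bp against shRNA. In the others 2 to 6 of 8 libraries did.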

Other observations

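MiRNAs of the oligodendrocyte list, the microglia and leukocyte list and the erythroid list gave these values beside the members, with all sums taken before TMM scaling. Of all tested miRNAs 19.7%, 33.3% and 31.5% rose over Empty_Vector with shRNA, shRNA_2bp and shRNA_5bp. Of 3 tested oligodendrocyte miRNAs, out of 5 listed, 2 rose with shRNA_2bp over Empty_Vector and 0 with shRNA or shRNA_5bp. Their sums were 125 to 141 CPM with shRNA, 166 to 201 CPM with shRNA_2bp, 122 to 169 CPM with shRNA_5bp and 116 to 146 CPM with Empty_Vector, and miR-219a-5p, which marks maturing oligodendrocytes, had at most 3 counts in any library. Of 3 tested microglia and leukocyte miRNAs, out of 9 listed, 2 rose with shRNA, 1 with shRNA_2bp and 2 with shRNA_5bp. Their sums were 501 to 637 CPM, 488 to 614 CPM and 748 to 940 CPM in that order, against 355 to 555 CPM with Empty_Vector. MiR-342-3p made up most of these sums. Its mean levels after TMM scaling were 487, 441, 721 and 406 CPM with shRNA, shRNA_2bp, shRNA_5bp and Empty_Vector. The microglial and myeloid miR-223-3p and miR-142a-3p had 0 counts in every library (up to 3.61 CPM allowed in the shallowest), while miR-155-5p rose by 2.19 with shRNA (edgeR adjusted p = 1.35e-07). The mean level of miR-155-5p was low, at 14.96 CPM with shRNA and 3.51 CPM with Empty_Vector. It was 3.21 CPM with shRNA_2bp and 3.65 CPM with shRNA_5bp. Of 2 tested erythroid miRNAs, out of 5 listed, both rose with shRNA_2bp and neither passed with shRNA or shRNA_5bp. Their sums were 182 to 197 CPM with shRNA, 242 to 261 CPM with shRNA_2bp, 230 to 265 CPM with shRNA_5bp and 183 to 199 CPM with Empty_Vector, and miR-144-3p had 0 counts.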
